A study of Mus musculus with 16 samples.

Results

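The 10 genes described here are 2 polo-like kinases, Plk2 and Plk3, and 8 genes of the stress and cell cycle checkpoint response: Gadd45a, Gadd45b, Gadd45g, Cdkn1a, Mdm2, Btg1, Btg2 and Ppp1r15a. They were picked by symbol from the 23337 gene symbols of a table of RNA-Seq read counts. Plk3 was the starting point because its counts were lower in stimulated neutrophils, and the other 9 were added to see whether genes related to p53 moved with it. The stimulation values of Plk3 are therefore given as a description with no test. All 10 genes passed the filter on low counts, as did 9213 genes in all.

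The libraries came from neutrophils of the blood of C57/Bl6 mice aged 8 weeks, purified by magnetic negative selection. LTβRΔN mice carried Ltbr fl/fl and Mrp8-Cre, a transgene in which the S100A8 promoter drives Cre in neutrophils, and the littermate controls carried Ltbr fl/fl without Cre. Control neutrophils gave 3 unstimulated and 4 stimulated libraries, and LTβRΔN neutrophils gave 4 unstimulated and 5 stimulated libraries. Per the protocol, cells were cultured for 2 h with 3 cytokines, TNF, IL-6 and GM-CSF (100, 50 and 100 ng/ml). LIGHT, a ligand of the lymphotoxin beta receptor, was either absent or added at 500 ng/ml. The labels of single libraries say only stimulated or unstimulated, so it is not given which of these agents each library received. They do not say whether a library is 1 animal or a pool either, so p-values measure only the spread between these libraries.

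Total counts ran from 1094335 to 11932653, and the lowest belonged to unstimulated LTβRΔN replicate 2. Levels are given in CPM, the count of a gene per 1000000 counts of its library after TMM scaling. Ltbr had 93.6 to 154 CPM in unstimulated and 84.6 to 148 in stimulated control libraries, against 3.62 to 10.4 and 0.705 to 18.1 CPM in LTβRΔN libraries. Cish, a STAT5 feedback gene, had 0.561 to 1.67 CPM in unstimulated and 272 to 589 CPM in stimulated control libraries, and 0.426 to 5.60 and 240 to 475 CPM in LTβRΔN libraries. The measured markers of neutrophils summed to between 46700 and 77100 CPM in every library. Those of immature neutrophils summed to 1690 to 3280 CPM, with Elane, Mpo and Ctsg at 0 in every library. Those of T cells reached at most 16.4 CPM, of erythroid cells 6.49 CPM and of eosinophils 11.3 CPM. Those of platelets reached at most 36.3 CPM, except in stimulated control replicates 1 and 3 with 50.5 and 233 CPM. The B cell list stood higher in stimulated libraries (158 to 364 CPM against 10.1 to 23.2 CPM), almost wholly from Cd74, an MHC class II chain, while Cd79b and Ms4a1 were at 0 in every library. The monocyte list (341 to 561 CPM) overlapped between all groups.

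p53 is a transcription factor that is held at a low level by Mdm2, the ubiquitin ligase that marks it for degradation, and is released by DNA damage and other stress. Its textbook targets include Cdkn1a, which encodes the inhibitor p21 of cyclin-dependent kinases, Mdm2 itself, Gadd45a, Btg2 and Plk2. Plk2 and Plk3 are stress-responsive serine/threonine kinases of the polo family, unlike Plk1, which acts in mitosis. The 3 GADD45 proteins are small acidic partners of kinases that bind MAP3K4, PCNA and p21, and Gadd45b is also a target of NF-kB. Btg1 and Btg2 are anti-proliferative proteins that recruit the CCR4-NOT deadenylase to mRNA. Ppp1r15a (GADD34) directs protein phosphatase 1 to eIF2alpha and so ends the integrated stress response. Blood neutrophils have left the cell cycle, and several of these genes are also immediate targets of cytokine and MAP kinase signals.

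The letters just before the transcription starts are shown for 5 of the genes. Of these, 4 hold an exact match to the p53 response element or the cAMP response element. Plk3, shown beside them, holds no exact match to any element searched. Gadd45g, which holds an exact match to the ATF4 element, is not shown. All were taken from RefSeq on GRCm38.p6, the assembly that mm10 also names, are written 5′ to 3′ on the strand of the gene, and end at the base before the annotated start. All 10 genes matched a promoter in that table, Cdkn1a with 2 starts, which gave 11 windows of 250 bases before to 50 bases after a start. Both strands were searched in these and in all 32851 promoters of the table. Capitals mark the p53 response element in Cdkn1a and the cAMP response element (TGACGTCA, which reads the same on both strands) in Plk2, Ppp1r15a and Btg2.
Cdkn1a, chr17:29090879-29090978, plus strand: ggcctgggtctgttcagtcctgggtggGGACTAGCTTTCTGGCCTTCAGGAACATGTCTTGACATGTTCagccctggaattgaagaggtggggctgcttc
Plk2, chr13:110394944-110395043, plus strand: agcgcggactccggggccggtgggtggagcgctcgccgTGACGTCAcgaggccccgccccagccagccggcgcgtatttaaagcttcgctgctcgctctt
Ppp1r15a, chr7:45526269-45526368, minus strand: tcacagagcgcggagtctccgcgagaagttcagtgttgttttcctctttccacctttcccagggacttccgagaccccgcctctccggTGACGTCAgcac
Btg2, chr1:134079156-134079355, minus strand: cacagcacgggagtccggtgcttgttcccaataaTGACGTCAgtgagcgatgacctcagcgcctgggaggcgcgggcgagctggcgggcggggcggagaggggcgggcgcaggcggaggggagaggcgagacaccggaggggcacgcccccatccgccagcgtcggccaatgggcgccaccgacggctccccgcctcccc
Plk3, chr4:117133964-117134063, minus strand: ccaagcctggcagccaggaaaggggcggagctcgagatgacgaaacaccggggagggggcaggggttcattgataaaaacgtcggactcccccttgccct

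The capitals of Cdkn1a join 2 overlapping matches at its upstream start. One is the p53 element with a gap of up to 13 bases, 73 to 42 bases before the start, which 0.0731% of all promoters hold. The other has no gap and at most 1 letter off, 51 to 32 bases before the start, and stands in 0.0883% of all promoters. That looser search was made for the p53 element alone and was added after the letters were seen. The window at the downstream start of Cdkn1a held no match to any element searched. The cAMP response element stood 62 to 55 bases before the start in Plk2, 12 to 5 in Ppp1r15a and 166 to 159 in Btg2, and 1.79% of all promoters hold it. The ATF4 element TGATGNAA had 1 match, in Gadd45g, 101 to 94 bases before the start, against 3.97% of all promoters. AP-1 (TGANTCA, 7.81% of all promoters), kappaB (4.51%) and the CArG box (1.63%) had no match in the 11 windows, Gadd45b included. These are matches of letters, and no binding was measured.

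The first question was which of the 10 genes differed between stimulated and unstimulated neutrophils. In control neutrophils Gadd45b, Cdkn1a, Ppp1r15a and Btg2 rose with stimulation, by 11.6-fold, 6.11-fold, 4.89-fold and 1.81-fold. In LTβRΔN neutrophils each of these genes was also called, by 10.7-fold, 3.53-fold, 3.36-fold and 1.44-fold. Thus 4 of the 9 genes tested were called in each genotype, all of them higher (edgeR, adjusted p under 0.05). Among all genes tested 3.48% were called in control neutrophils, 2.82% higher, and 3.73% in LTβRΔN neutrophils, 2.98% higher. The 9 genes were chosen with earlier results of these data known, so the shares beside them serve as a description only. The groups did not overlap for 5 of the 9 in control and 4 of the 9 in LTβRΔN neutrophils, against 12.7% and 7.28% of all genes. Plk3 stood the other way, 2.39-fold lower in control and 2.61-fold lower in LTβRΔN neutrophils. Mdm2, Btg1, Plk2 and Gadd45a were not called in either genotype, nor was Gadd45g, whose adjusted p was 0.0660 and 0.0800. Fold changes come from the edgeR fit of all 16 libraries. In bulk RNA, fewer cells of a kind and less RNA per cell cannot be told apart, and the part of Cd74, which was also higher with stimulation, was not tested.

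**Figure D1:**
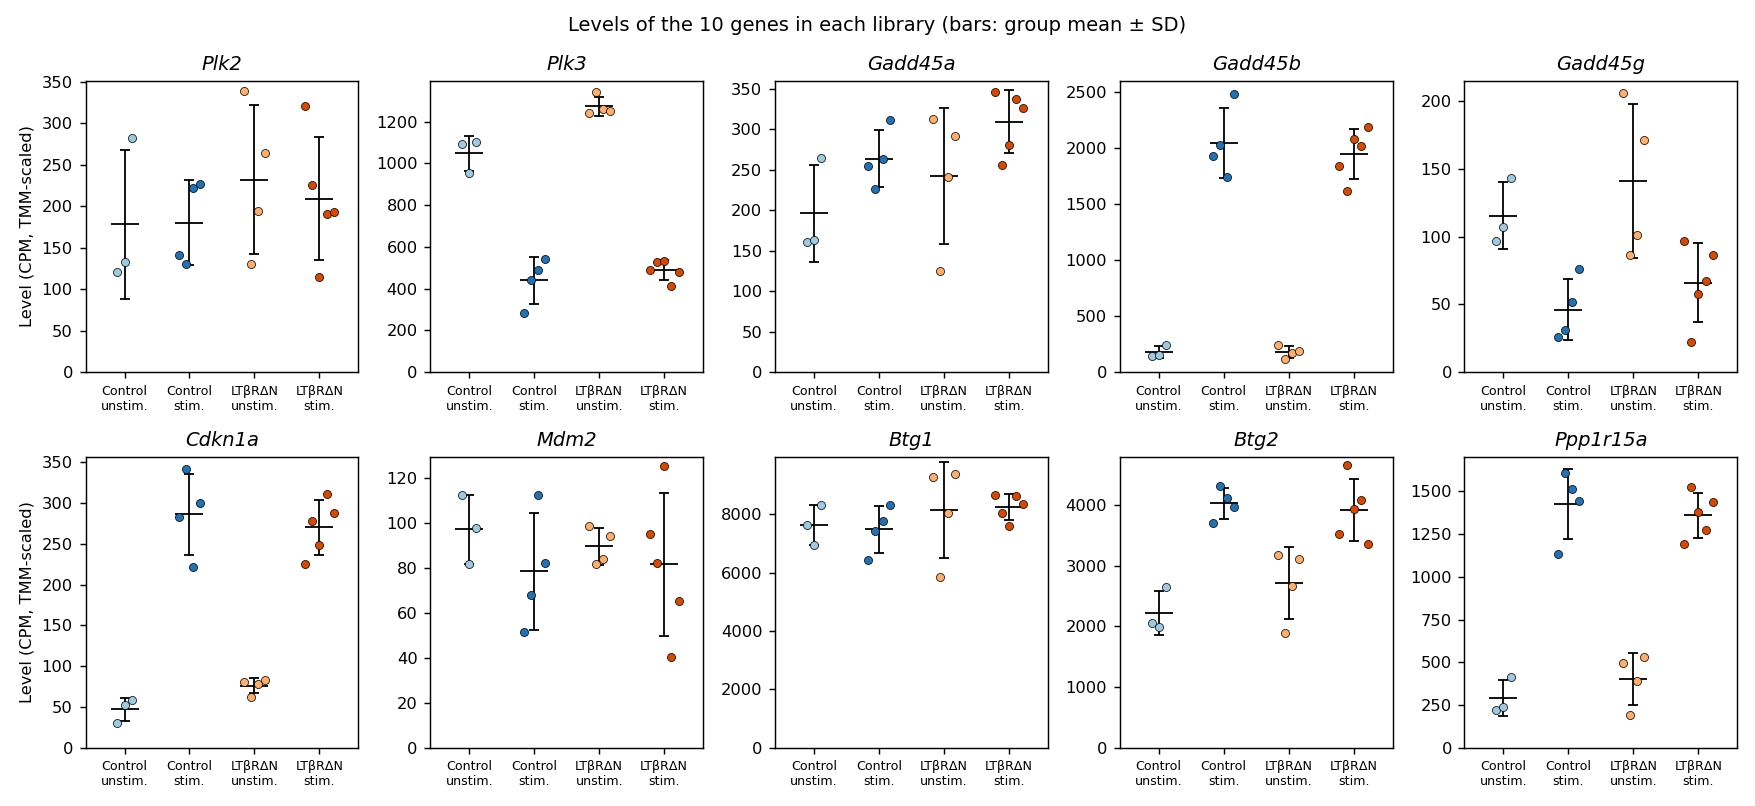
Level of each of the 10 genes in each of the 16 libraries, in CPM on a linear axis from 0, by genotype and treatment label (points: libraries, bars: group mean ± SD with n = 3, 4, 4 and 5). Gadd45b, Cdkn1a and Ppp1r15a of the stimulated libraries lie above, and Plk3 below, all unstimulated libraries, while Btg1, Plk2 and Mdm2 overlap between groups.

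Plk3 (chromosome 4, 117128655 to 117133963, minus strand, GRCm38) had 1091, 952 and 1101 CPM in the unstimulated control libraries. Stimulated control libraries had 282, 442.5, 488 and 541.5 CPM. Every stimulated control library was below every unstimulated one, and the mean went from 1048 ± 83.6 to 438.5 ± 112 CPM (SD, n = 3 and 4). In LTβRΔN neutrophils the unstimulated libraries had 1241, 1341, 1260 and 1252 CPM. The stimulated ones had 490, 526.5, 534, 413 and 479 CPM. Again no value overlapped, with means of 1273 ± 45.5 and 488 ± 48.2 CPM (SD, n = 4 and 5). The log2 fold change was -1.26 (SE 0.16) in control and -1.38 (SE 0.14) in LTβRΔN neutrophils, and 13.6% and 10.3% of all genes tested had a larger absolute value.

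Plk2 (chromosome 13, 110395046 to 110400844, plus strand) was not called. It ran from 121 to 282 CPM in unstimulated and 130.5 to 226 CPM in stimulated control libraries, and from 130 to 338 and 115 to 321 CPM in LTβRΔN libraries, so all 4 groups overlapped. Its log2 fold change was 0.02 (95% interval -0.65 to 0.69) in control and -0.16 (-0.75 to 0.43) in LTβRΔN neutrophils. The highest unstimulated control value was that of replicate 3, and the lowest unstimulated LTβRΔN value that of replicate 2. Per kb of transcript Plk3 stood at 11.9 ± 4.61 times Plk2 in unstimulated and 4.42 ± 1.10 times in stimulated control libraries, and at 11.2 ± 5.19 and 4.67 ± 2.10 times in LTβRΔN libraries. Of the other polo-like kinases, Plk1 and Plk5 were removed by the filter on low counts. Plk4, which duplicates centrioles, had log2 fold changes of 1.71 (SE 1.07) and 2.31 (SE 0.98) and was not called (edgeR adjusted p = 0.640 and 0.288).

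Gadd45b (chromosome 10, 80930073 to 80932204, plus strand) had the largest fold change of the 10 genes in both genotypes. Unstimulated control libraries had 140, 151 and 238 CPM. Stimulated control libraries had 1933, 2034, 1744 and 2483 CPM. The lowest stimulated value was thus far above the highest unstimulated one. LTβRΔN libraries had 241, 115, 173 and 190 CPM without stimulation. With stimulation they had 1846, 1614, 2082, 2019 and 2188 CPM. On the log2 scale Gadd45b was higher by 3.54 (SE 0.22, edgeR adjusted p = 8.62e-11) in control and 3.42 (SE 0.19, adjusted p = 1.24e-11) in LTβRΔN neutrophils.

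Gadd45a (chromosome 6, 67035096 to 67037457, minus strand), the family member most tied to p53, ran from 160.5 to 265 CPM in unstimulated and 226 to 311 CPM in stimulated control libraries. LTβRΔN libraries ran from 125 to 313 and from 256 to 346 CPM. The groups overlapped, and the log2 fold change was 0.43 (95% interval -0.04 to 0.90) and 0.34 (-0.08 to 0.75).

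Gadd45g (chromosome 13, 51846678 to 51848468, plus strand), known from cytokine-driven and developmental expression, had lower values in stimulated libraries that did not pass the test in the main analysis but did in several others. Unstimulated control libraries had 96.5, 107 and 144 CPM. Stimulated ones had 25.5, 31.3, 51.7 and 75.9 CPM, all of them lower. LTβRΔN libraries had 206, 86.4, 101 and 172 CPM unstimulated and 96.6, 22.0, 57.8, 67.4 and 86.8 CPM stimulated, and these overlapped. On the log2 scale the difference was -1.32 (95% interval -2.12 to -0.52) in control and -1.13 (-1.85 to -0.41) in LTβRΔN neutrophils. With DESeq2 in place of edgeR both values had an adjusted p under the threshold, 0.0222 and 0.0383. With edgeR and no filter on low counts they had 0.0176 and 0.0259, and with library totals as the only scaling 0.0132 and 0.0242. With edgeR and the numbers in the column names as a replicate block they had 0.000776 and 0.00106. It is not known whether equal numbers mark the same animal. Without stimulated control replicate 4 the edgeR adjusted p in control neutrophils was 0.0157, but without unstimulated control replicate 3 it was 0.277. Gadd45g was not called with the library index of the sample titles as a covariate (edgeR adjusted p = 0.197 in control and 0.843 in LTβRΔN neutrophils). The same held without the libraries under 2000000 counts (edgeR adjusted p = 0.0963 and 0.104).

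The 3 family members had near equal levels per kb of transcript without stimulation and very unequal ones with it. Gadd45a, Gadd45b and Gadd45g made up 34.5 ± 1.22%, 34.4 ± 0.905% and 31.1 ± 1.90% of their summed level in unstimulated control libraries (SD, n = 3). In stimulated control libraries they made up 10.2 ± 1.12%, 87.2 ± 1.81% and 2.61 ± 1.04% (SD, n = 4). In LTβRΔN neutrophils the shares were 36.8 ± 3.73%, 31.0 ± 2.62% and 32.2 ± 4.15% unstimulated (SD, n = 4) and 12.1 ± 1.21%, 84.2 ± 2.28% and 3.77 ± 1.53% stimulated (SD, n = 5). The share of Gadd45b ran from 27.8% to 35.5% in the 7 unstimulated and from 80.7% to 89.2% in the 9 stimulated libraries. Being ratios within a library, the shares do not depend on how libraries were scaled to each other.

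**Figure D2:**
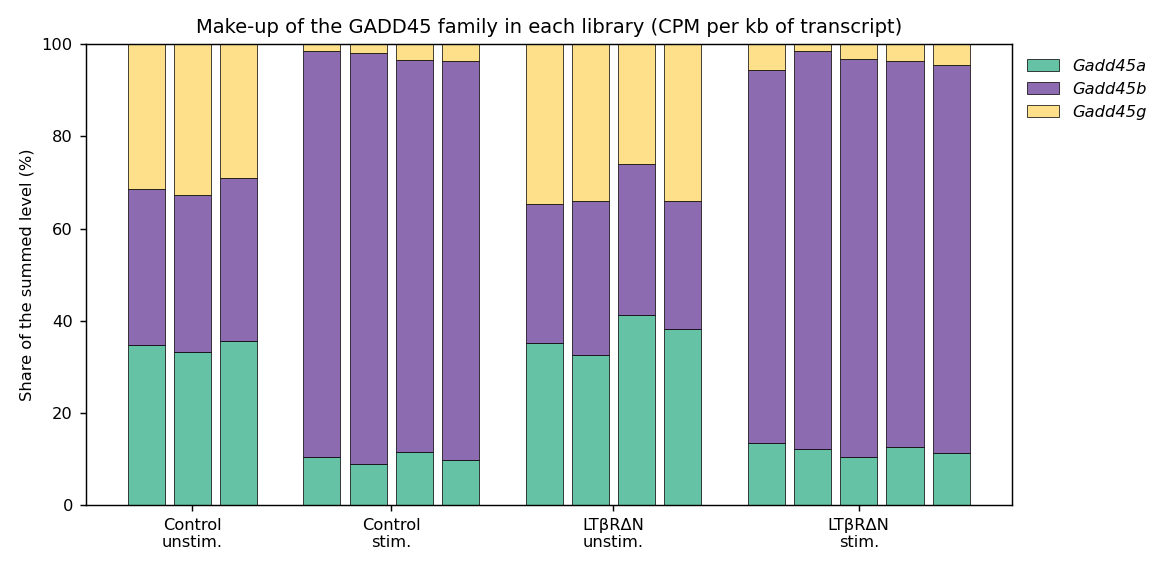
Share in percent of Gadd45a, Gadd45b and Gadd45g in their summed level (CPM per kb of transcript), 1 stacked bar for each library, grouped by genotype and treatment label. Gadd45b makes up 27.8% to 35.5% of the bar in unstimulated and 80.7% to 89.2% in stimulated libraries.

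Cdkn1a (chromosome 17, 29090976 to 29100727, plus strand) was the lowest of the 10 genes per kb in unstimulated control neutrophils, at 13.2 ± 4.09 CPM per kb (SD, n = 3), and its range overlapped that of Mdm2. Its unstimulated control libraries had 30.6, 52.0 and 58.4 CPM. Stimulated control libraries had 283, 341, 221 and 300.1 CPM. No value overlapped, and the log2 fold change was 2.61 (SE 0.21, edgeR adjusted p = 5.54e-09). LTβRΔN libraries had 80.7, 62.4, 77.9 and 82.9 CPM unstimulated. They had 225.5, 279, 249, 311 and 287 CPM stimulated. There the log2 fold change was 1.82 (SE 0.18, edgeR adjusted p = 1.37e-07).

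Mdm2 (chromosome 10, 117688875 to 117710758, minus strand), the p53 target that limits p53, was not called. It ran from 81.8 to 113 CPM in unstimulated and 51.4 to 112 CPM in stimulated control libraries. In LTβRΔN libraries it ran from 81.6 to 99.0 and from 40.4 to 125 CPM. The log2 fold change was -0.31 (95% interval -0.88 to 0.26) and -0.15 (-0.67 to 0.37), so a rise by the size of that of Cdkn1a lies outside both intervals. Per kb, Cdkn1a to Mdm2 was 0.390, 0.910 and 0.855 in the unstimulated control libraries. It was 7.88, 7.17, 2.82 and 5.22 in the stimulated ones. In LTβRΔN libraries it was 1.09 to 1.32 unstimulated and 2.84 to 11 stimulated, so no group with stimulation overlapped one without.

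Btg1 (chromosome 10, 96617006 to 96622809, plus strand) was the most abundant of the 10 genes per kb without stimulation, at 1445 ± 130 CPM per kb in control and 1542 ± 311 CPM per kb in LTβRΔN neutrophils (SD, n = 3 and 4). It had 6937 to 8313 CPM in unstimulated and 6437 to 8335 CPM in stimulated control libraries, and 5851 to 9390 and 7615 to 8656 CPM in LTβRΔN libraries. All groups overlapped. The log2 fold change was -0.03 (95% interval -0.30 to 0.25) and 0.02 (-0.22 to 0.26). These were the narrowest intervals of the 10 genes in both genotypes, and Btg1 had 7310 to 110294 counts a library.

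Btg2 (chromosome 1, 134075170 to 134079120, minus strand) had 2048, 1980 and 2642 CPM in unstimulated control libraries. Stimulated ones had 3704, 4314, 4113 and 3967 CPM, all higher. LTβRΔN libraries had 3169, 1897, 2669 and 3114 CPM unstimulated. They had 3520, 4651, 3930, 4083 and 3356 CPM stimulated, again all higher, but the closest values were 3169 and 3356. The log2 fold change was 0.86 (SE 0.16, edgeR adjusted p = 8.38e-04) in control and 0.53 (SE 0.13, adjusted p = 0.0244) in LTβRΔN neutrophils. The call in LTβRΔN neutrophils was lost without unstimulated replicate 2 (0.39, adjusted p = 0.0872) or 3 (0.52, adjusted p = 0.0849) and without stimulated replicate 2 (0.46, adjusted p = 0.0705), 3 (0.52, adjusted p = 0.0505) or 4 (0.51, adjusted p = 0.0595). Per kb, Btg2 to Btg1 was 0.517 to 0.611 in unstimulated and 0.915 to 1.12 in stimulated control libraries, and 0.624 to 0.658 and 0.774 to 1.11 in LTβRΔN libraries.

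**Figure D3:**
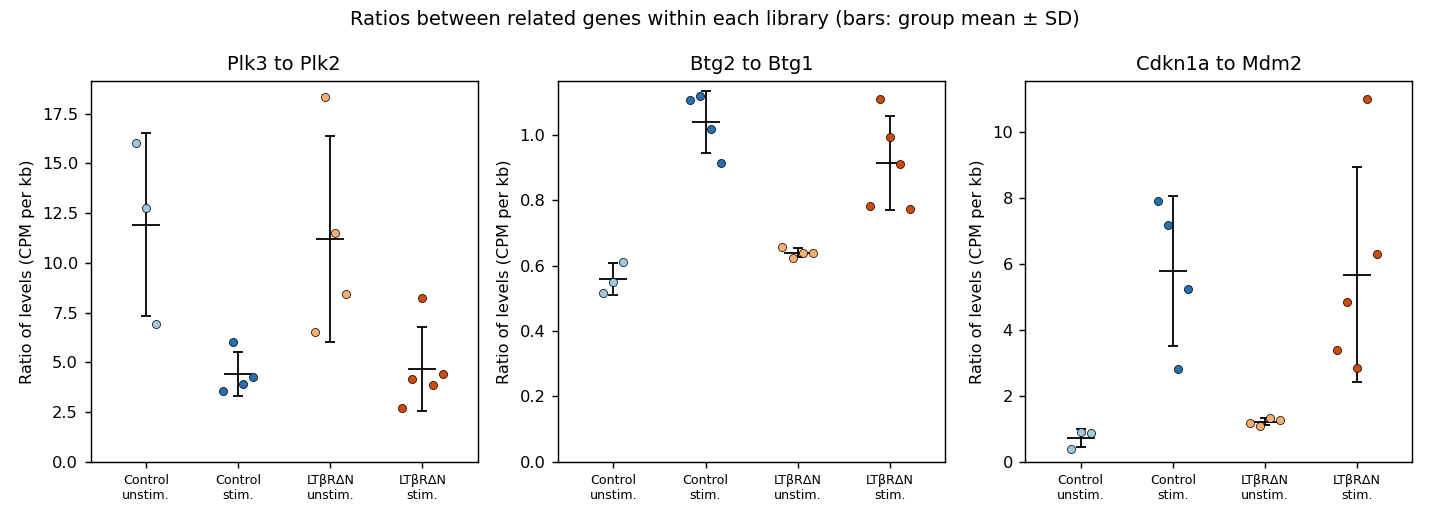
Ratio of levels in CPM per kb of transcript between Plk3 and Plk2, Btg2 and Btg1, and Cdkn1a and Mdm2 in each library (points: libraries, bars: group mean ± SD with n = 3, 4, 4 and 5, axes from 0). Stimulated libraries lie above unstimulated ones for Btg2 to Btg1 and Cdkn1a to Mdm2 in both genotypes, and the group means of Plk3 to Plk2 go from 11.9 to 4.42 and from 11.2 to 4.67.

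Ppp1r15a (chromosome 7, 45522916 to 45526268, minus strand) had 221, 238 and 416 CPM in unstimulated control libraries, the highest being replicate 3. Stimulated ones had 1133, 1609, 1513 and 1442 CPM. LTβRΔN libraries had 494, 190, 391 and 532 CPM unstimulated, the lowest being replicate 2. They had 1192, 1528, 1377, 1273 and 1436 CPM stimulated. Neither genotype showed any overlap, and the log2 fold change was 2.29 (SE 0.26, edgeR adjusted p = 1.26e-06) in control and 1.75 (SE 0.22, adjusted p = 6.86e-06) in LTβRΔN neutrophils.

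The order of the genes by level per kb changed with stimulation. Unstimulated control neutrophils had Btg1, Btg2 (811 ± 133 CPM per kb) and Plk3 (414 ± 33.0) at the top, with no overlap between these 3. Gadd45a, Gadd45b, Ppp1r15a and Gadd45g followed between 98.7 and 111 CPM per kb, each overlapping the next, and then Plk2, Mdm2 and Cdkn1a. In stimulated control neutrophils Btg2 (1467 ± 93.7), Btg1 (1419 ± 151) and Gadd45b (1289 ± 197) overlapped at the top. Ppp1r15a came next (485 ± 70.1), ahead of Plk3 (173 ± 44.2), and Mdm2 was last (15.4 ± 5.09). LTβRΔN neutrophils had the same 3 genes at the top and the same last gene with stimulation.

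Treatment was uneven over a library index that the sample titles carry. It was S520 for 6 libraries, all of them unstimulated, and S521 for the other 10, of which only control replicate 3 was unstimulated. In LTβRΔN neutrophils index and stimulation therefore cannot be told apart. In control neutrophils the 4 stimulated libraries could be compared with replicate 3 within S521. The unstimulated arm is then 1 library, whose spread is assumed to be that of the 9 stimulated libraries in the fit. There Gadd45b had a log2 fold change of 3.10, Cdkn1a of 2.29 and Ppp1r15a of 1.77, all called (edgeR adjusted p = 1.26e-07, 7.45e-05 and 5.43e-05), and Plk3 of -1.33. Btg2 was not called there (0.60, adjusted p = 0.139), and Gadd45g had -1.64 (adjusted p = 0.298). With the index as a covariate the control values were close to these, and 3 of the 9 genes were called. For LTβRΔN neutrophils that fit takes its index term from the control libraries, and 1 of the 9 genes, Gadd45b, was called (2.71, adjusted p = 6.37e-05), against Cdkn1a with 1.32 (adjusted p = 0.109), Ppp1r15a with 0.89 (adjusted p = 0.897) and Btg2 with 0.13 (adjusted p = 1). Without the 3 libraries under 2000000 counts, 4 and 3 of the 9 genes were called.

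**Figure D4:**
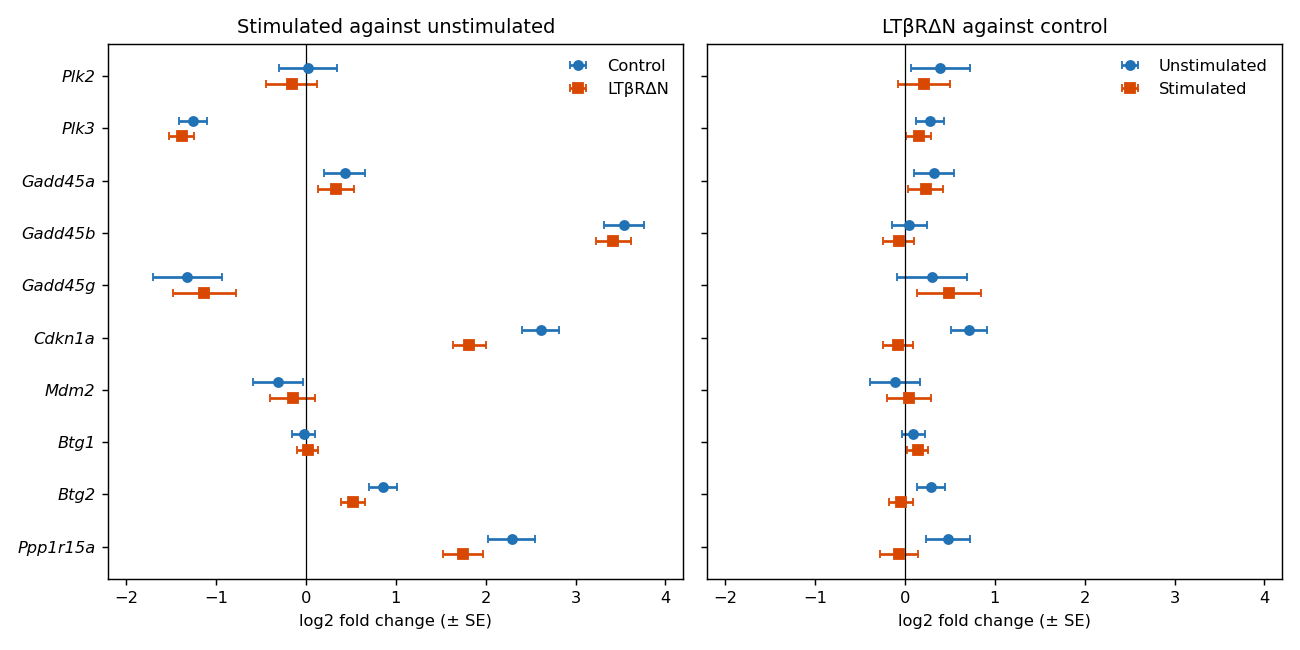
Log2 fold change ± SE of the 10 genes in the edgeR fit of 16 libraries, for stimulated against unstimulated libraries in control and LTβRΔN neutrophils (left) and for LTβRΔN against control in unstimulated and stimulated neutrophils (right). Gadd45b, Cdkn1a, Ppp1r15a and Btg2 lie above and Plk3 and Gadd45g below 0 on the left, and on the right the values lie between -0.11 and 0.71.

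The second question was whether the genotype changed these genes, and no difference was called in any of the 10. On simulated counts only 23.5% and 17.5% of 2-fold genotype changes were recovered in stimulated and unstimulated neutrophils. The changed genes were drawn from all genes tested, so these shares are not those of the 10 genes. Among the 10, the 95% interval reached a 2-fold difference for Gadd45g in stimulated neutrophils (-0.24 to 1.225). It did so for Plk2 (-0.28 to 1.07), Gadd45g (-0.50 to 1.11) and Cdkn1a (0.30 to 1.12) in unstimulated ones. Real differences, above all smaller ones, could be missed. In stimulated neutrophils 0 of 10 were called between genotypes (edgeR, 0 with DESeq2), where 0.0217% of all genes were. An unadjusted p under 0.05 was reached by 0 of 10, against 6.41% of all genes. The log2 differences of LTβRΔN against control lay between -0.08 for Cdkn1a and 0.49 for Gadd45g. Plk3 differed by 0.16 (95% interval -0.13 to 0.44), Gadd45b by -0.07 (-0.42 to 0.28) and Ppp1r15a by -0.07 (-0.50 to 0.37).

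In unstimulated neutrophils 0 of 10 were called as well (edgeR, 0 with DESeq2), against 0.0217% of all genes, and 1 of 10 had an unadjusted p under 0.05, against 2.8% of all genes. That gene was Cdkn1a, 1.64-fold higher in LTβRΔN libraries (log2 0.71, SE 0.20, edgeR adjusted p = 1, and over all alternatives at least 0.452). Its 4 LTβRΔN libraries, at 62.4 to 82.9 CPM, all lay above the 3 control libraries, at 30.6 to 58.4 CPM. Plk3 also had no overlap, with 1241 to 1341 against 952 to 1101 CPM, and a log2 difference of 0.28 (95% interval -0.05 to 0.61). These 2 of 10 genes without overlap, both higher, compare with 5.71% of all genes tested, and 2.54% higher. In the fit of all 16 libraries 9 of the 10 genes had a log2 difference above 0 and 1 below. Over all genes tested 4488 lay above and 4708 below. Within S520, which holds 2 control and all 4 LTβRΔN libraries, 0 of 10 were called. There Cdkn1a differed by 0.89 (SE 0.25), Plk2 by 0.89 (SE 0.275), Ppp1r15a by 0.82 (SE 0.28) and Mdm2 by -0.11 (SE 0.20). In the fit of all libraries Plk2 had 0.39, Ppp1r15a 0.47 and Mdm2 -0.11.

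The difference between the 2 stimulation effects was tested as an interaction and was called for 0 of 10 genes (edgeR, 0 with DESeq2), with 0% of all genes called. Cdkn1a alone had an unadjusted p under 0.05, which 3.71% of all genes had. Its stimulation effect was smaller in LTβRΔN neutrophils by 0.79 on the log2 scale (SE 0.26, edgeR adjusted p = 1). The stimulated levels were 286.5 ± 49.9 and 270.2 ± 33.4 CPM, while the unstimulated levels were 47.0 ± 14.5 and 76.0 ± 9.27 CPM (SD, n = 4, 5, 3 and 4). Ppp1r15a had an interaction of -0.54 and Plk3 of -0.13.

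The other genes of the p53 pathway are read against the 3.48% and 3.73% of all genes that were called by stimulation in control and LTβRΔN neutrophils. Of 12 measured regulators of p53 that were tested, 0 were called in control neutrophils (1 with an unadjusted p under 0.05) and the median log2 fold change was 0.07, against -0.02 over all genes tested. In LTβRΔN neutrophils 1 was called (2 with an unadjusted p under 0.05). There the median was 0.185, against -0.03 over all genes tested, with 10 of the 12 above 0 and 2 below. The called gene was Crebbp, an acetyltransferase of p53 and many other proteins, with 1.14 (SE 0.26, edgeR adjusted p = 0.00914). Trp53 itself, named after its values were seen, had 7.44 to 13.9 CPM in unstimulated and 4.05 to 11.1 CPM in stimulated control libraries. In LTβRΔN libraries Trp53 had 3.58 to 7.20 CPM unstimulated and 3.11 to 16.2 CPM stimulated. Its mean was lower with stimulation in control (10.5 and 6.485 CPM) and higher in LTβRΔN neutrophils (4.98 and 8.47 CPM), with overlap in both genotypes. Of 30 tested genes listed here as p53 targets outside the 10 genes, the medians were -0.05 and -0.003 in control and LTβRΔN neutrophils. In control neutrophils 1 was called higher and 0 lower, and in LTβRΔN neutrophils 2 higher and 0 lower. These were Ccng2 (cyclin G2) in both genotypes, 3.83-fold and 4.22-fold higher (edgeR adjusted p = 3.49e-09 and 1.42e-10), and Sesn2, a stress sensor of the mTORC1 pathway, with 0.67 (adjusted p = 0.0228) in LTβRΔN neutrophils and 0.63 (adjusted p = 0.0744) in control neutrophils. Ccng1, the cyclin G that p53 is best known to induce, had -0.76 (SE 0.37, adjusted p = 0.432) and -0.64 (SE 0.34, adjusted p = 0.453). Whether p53 acted on Ccng2 or on any other gene of the list was not tested.

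Genes listed for the integrated stress response, which take in some of the unfolded protein response, moved in both directions. Of the 21 tested genes of that list, outside Ppp1r15a, 3 were called higher and 1 lower in control neutrophils. In LTβRΔN neutrophils 4 were called higher and 2 lower, and the medians were 0.09 and -0.05. Among all genes tested 3.48% and 3.73% were called. Slc7a11, the cystine transporter, was 5.24-fold and 3.96-fold higher. Xbp1, a factor of the unfolded protein response, was 2.86-fold and 2.38-fold higher, and the chaperone Hspa5 was 1.74-fold and 1.94-fold higher. The gene called lower in both genotypes was Ddit3 (CHOP), whose level went from 149 ± 26.4 to 79.5 ± 17.6 CPM in control (SD, n = 3 and 4) and from 170 ± 16.7 to 83.0 ± 17.1 CPM in LTβRΔN neutrophils (SD, n = 4 and 5). Atf3, also lower, was called in LTβRΔN neutrophils alone, with -0.71 (SE 0.19, edgeR adjusted p = 0.0295). The lists share some genes, so their counts are not separate. Sesn2, called higher here in LTβRΔN neutrophils, also counts among the p53 targets, and Atf3 also counts among the immediate early genes. Atf4, named after its values were seen, averaged 112.5 ± 14.0 CPM in unstimulated and 108 ± 19.8 CPM in stimulated control libraries (SD, n = 3 and 4). In LTβRΔN libraries Atf4 averaged 116 ± 34.7 CPM unstimulated and 102 ± 24.3 CPM stimulated (SD, n = 4 and 5).

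Immediate early genes, which cells induce within minutes of a signal, gave the most calls of the 7 related lists plotted. Of 31 tested, 13 were called higher and 2 lower in control neutrophils, and 14 higher and 3 lower in LTβRΔN neutrophils, with medians of 0.79 and 0.78 against -0.02 and -0.03 over all genes. Ier3 was 20.7-fold and 17.3-fold higher, and the phosphatase Dusp2 11.1-fold and 6.49-fold. Dusp6, a phosphatase of ERK, was 4.43-fold and 4.24-fold lower. Among the relatives of the BTG proteins and their CCR4-NOT partners 0 of 11 were called in either genotype (2 in each with an unadjusted p under 0.05), as were 0 of 9 kinases and cell cycle partners of GADD45 (0 and 1) and 0 of 5 other CDK inhibitors (1 and 1). Of 20 genes of dividing cells only 4 passed the filter, and 0 were called in either genotype (1 and 0 with an unadjusted p under 0.05). In the genotype comparisons and the interaction 0 genes of any of these lists were called.

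**Figure D5:**
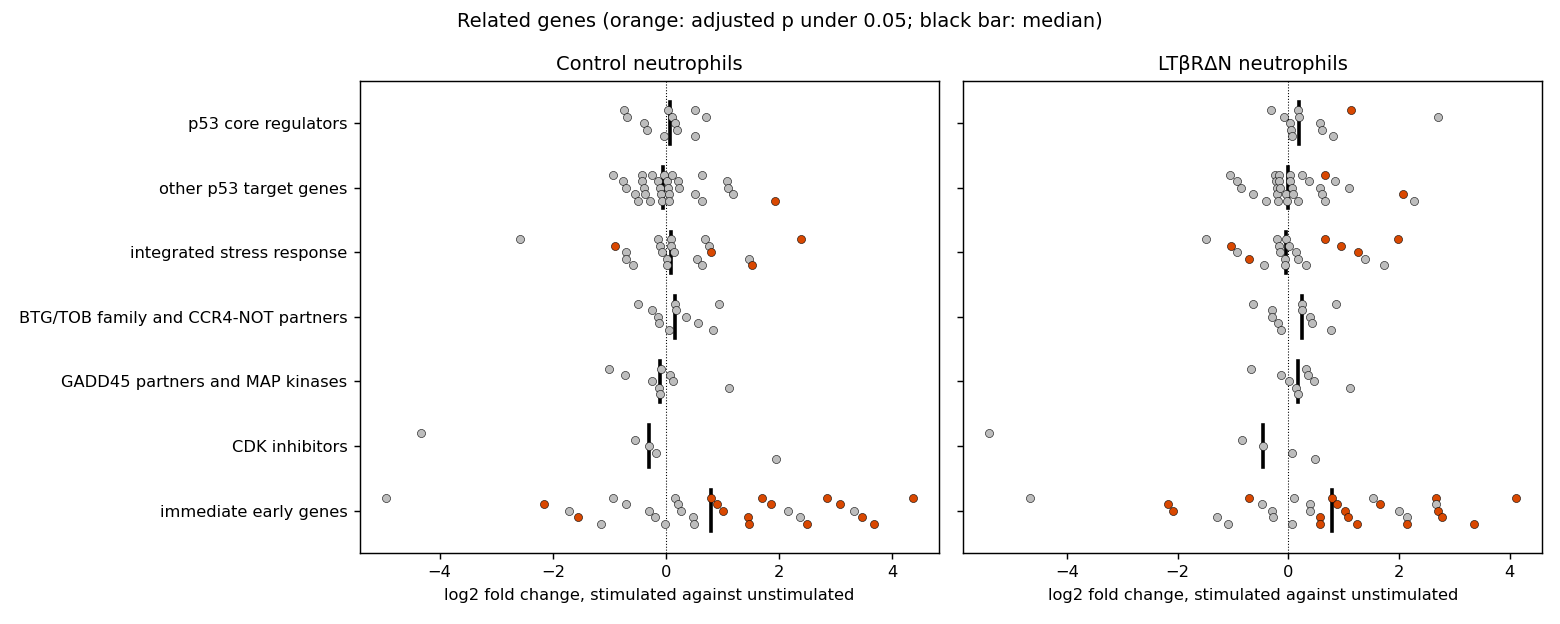
Log2 fold change of each tested gene of 7 related lists, stimulated against unstimulated, in control (left) and LTβRΔN (right) neutrophils (1 point a gene, spread vertically for visibility, orange where the edgeR adjusted p was under 0.05, black bar for the list's median). The list of immediate early genes holds 15 and 17 orange points, and the p53 targets 1 and 2.

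The genes whose centred log2 CPM over the 16 libraries came closest to Plk3 were Ddit3, Osgin1, Arrdc3, F630028O10Rik and Gad1, by root-mean-square difference of 0.296, 0.304, 0.310, 0.329 and 0.332. The median over all other tested genes was 0.978, and Plk2 stood at 0.807. Osgin1, an oxidative stress gene, averaged 743 ± 77.0 and 240 ± 55.5 CPM in unstimulated and stimulated control libraries (SD, n = 3 and 4). Arrdc3, an arrestin-domain adaptor, averaged 476 ± 72.4 and 180 ± 50.8 CPM in the same libraries. These values describe likeness of level only.

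Reads of overlapping genes on the other strand could not be told apart, since the strand setting of the counting is not given. On the GENCODE M21 annotation exons of Plk3 share 84 bases with Tctex1d4, of Gadd45a 859 with E230016M11Rik, of Ppp1r15a 407 with Tulp2 and of Cdkn1a 273 with an unnamed transcript. Tctex1d4, E230016M11Rik and Tulp2 reached at most 3.09, 3.84 and 0.125 CPM. Btg1 has 2 pseudogenes named after it, which could take some of its reads.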

How the data were processed

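Bulk RNA-Seq libraries (single-end, HiSeq2500) of blood neutrophils were analysed from raw counts per gene symbol, which the authors deposited as 1 table of 16 libraries. The submitters' processing notes name Bowtie 1.0.0, TopHat 1.4.1, HTSeq 0.7.1 and mm10, and neither their settings nor the strand used is given in the sources used here. Genes were kept by edgeR's filterByExpr (minimum count 10, minimum total 15), leaving 9213 of 23337. Counts were scaled by TMM and tested with edgeR 4.0.16 (R 4.3.3, limma 3.58.1) by the quasi-likelihood test, with 1 coefficient per group and all 16 libraries, with Benjamini-Hochberg adjustment over the 9213 genes. Genes were called at an adjusted p under 0.05, and 95% intervals come from that fit. Contrasts were stimulation within each genotype, genotype within each treatment, and their interaction. All 10 members passed the filter, so the permutation test planned for members under it had nothing to test. Levels per kb used the exonic length of GENCODE M21, so they ignore which isoform was made.

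The members, the gene lists and the tests were chosen with earlier results of these data known. All members were named, with at most the 3 genes of smallest adjusted p per related list and comparison, the 5 genes nearest to Plk3, and Ltbr and Cish as checks of the labels. Genes called in a list and named beyond that rule (Atf3, Ddit3 in the integrated stress response), and Trp53 and Atf4, were chosen after their values were seen. Totals of 1094335 to 11932653 counts gave each member 78 to 110294 counts a library. Replicates of a group differed by more than counting error (chi-square per degree of freedom 6.82 to 49.4 over 25 pairs), so none was counted as a repeat deposit. The steps were tested on simulated counts with 200 changed genes, drawn from all genes tested. Over the stimulation and genotype comparisons, 1% to 8% of 1.5-fold changes were recovered. For 2-fold changes it was 17% to 26%, and for 4-fold changes 49% to 53.5%. The interaction was not simulated. Alternatives were DESeq2 1.42.0 size factors and Wald test, upper-quartile scaling, library totals, 2 other filters, the library index as covariate or held fixed, the compared groups alone, libraries of at least 2000000 counts, a replicate block, and each library left out.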

Additional observations from a re-analysis of the deposited data

How the results depend on the processing

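The number of members called stayed within 1.5 times of 4 for stimulation in control neutrophils (3 to 5) and at 0 for both genotype comparisons and the interaction under every alternative. For stimulation in LTβRΔN neutrophils it was 3 to 5, but 1 with the library index as a covariate. That covariate also gave 157 and 79 genes called by stimulation in control and LTβRΔN neutrophils against 321 and 344, and 1 by the interaction against 0. Libraries of 1 index gave 153 in control neutrophils. Genes called by genotype, 2 in each comparison, were 4 in unstimulated neutrophils with no filter, 1 in both with at least 10 counts in every library, and 14 stimulated and 4 unstimulated with DESeq2. Leaving out each library in turn gave 219 to 334 and 266 to 334 genes by stimulation, 2 to 6 by genotype in unstimulated neutrophils, and 0 to 2 by the interaction, the 6 and the 2 being without unstimulated control replicate 1. Library totals alone moved the median of all genes from -0.02 to -0.27 in control and from -0.03 to -0.21 in LTβRΔN neutrophils, and the split of higher and lower genes from 260 and 61 to 201 and 272, and from 275 and 69 to 216 and 293. With them Plk3 stood at -1.51 in control neutrophils, and Btg2 lost its call in LTβRΔN neutrophils (0.35, edgeR adjusted p = 0.104). Gadd45g was called in both genotypes with library totals, either other filter, DESeq2 and the replicate block. Of 774 values of members called in neither fit, 56 changed sign. No called member reversed. The causes were not tested. Numbers in the column names were not used to pair libraries in the main test, because correlations of deviations between libraries of the same number were low. They were 0.0214 to 0.0694 over 7 pairs, 0 above 0.1. Yet 6 of 7 libraries correlated best with their own number, so it is not known whether equal numbers mark the same animal. With those numbers as a replicate block Gadd45g stood at -1.53 and -1.30 (edgeR adjusted p = 0.000776 and 0.00106), 5 of 9 members were called in each genotype, as were 324 and 343 genes, and 0 by the interaction, while genotype is nested in the block and could not be fitted.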
